A study of Mus musculus with 2 samples.

Results

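Firre is an X-linked gene for a long noncoding RNA, and its CTCF binding was described here from ChIP-seq peak lists of mouse embryonic stem cells. The members were the peaks of the authors' conservative set, the stricter of their 2 lists of reproducible peaks, whose summit lay on Firre (chrX:50563120-50635321 on mm10, 72202 bp, minus strand) or within 50 kb of it (chrX:50513120-50685321). There were 14 such peaks of 43393 in the set, 9 in the gene body and 5 in the flanks. On the autosomes and X the set held 43344 peaks, of which 1009 lay on X. They were chosen by measured values, namely the position of their summits, after the number of peaks here had been seen, so number, position and signal are given as a description, with no test.

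The series held 2 libraries, biological replicates 1 and 2 of 1 group, from E14TG2a.4, an embryonic stem cell line of mouse strain 129/Ola labelled male. Chromatin bound by CTCF was collected with an antibody to it and sequenced, with no treatment or second condition named in the labels. Both libraries carry the same donor label, so the spread between them is that of separate samples of 1 line. Peak lists hold no read counts, so library depth is unknown, and with 2 libraries of 1 group no test between conditions was possible.

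CTCF is a zinc-finger protein that binds a long, directional DNA motif, and cohesin loops tend to end at its sites, most often at pairs of sites whose motifs point toward each other. The RNA of Firre is kept in the nucleus, contains a repeated domain that binds the matrix protein HNRNPU, and is known for staying near its own gene and touching genes on other chromosomes. The Firre locus is also known as an anchor of very long loops on the inactive X of female cells. In a male line there is a single X, so these lists concern CTCF on that copy.

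Firre is built of repeats, and the sequences that carry the CTCF sites come first. They were read from mm9, the build whose genome sequence was used here. On mm9 the gene carries an older name, 6720401G13Rik, and is annotated at chrX:47908921-47988498 (minus strand, 79578 bp, 4 transcripts with 16 distinct exons). A stretch of 319 bp centred on the motif of the strongest mm9 peak inside the gene had 16 copies on X, itself included, all inside Firre and all in the same direction. The other 15 were 81.3% to 96.9% identical to it, with a median of 87.2%. The copies are numbered here from the end of the gene toward its start. Each holds a pair of elements that resemble the CTCF motif. Those of 7 copies are printed below, 5′ to 3′ on the plus strand of mm9, which is the strand opposite to Firre, to show how the elements differ. Both elements are in capitals. The left one is the reverse complement of an element that reads in the direction of Firre, and the right one reads in the opposite direction.
Copy 15 (chrX:47967695-47967804): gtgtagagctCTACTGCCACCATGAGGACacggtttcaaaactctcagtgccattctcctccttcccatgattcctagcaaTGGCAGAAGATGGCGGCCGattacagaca
Copy 16 (chrX:47970329-47970438): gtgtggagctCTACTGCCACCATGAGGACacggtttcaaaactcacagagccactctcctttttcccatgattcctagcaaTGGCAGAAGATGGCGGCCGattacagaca
Copy 11 (chrX:47955708-47955817): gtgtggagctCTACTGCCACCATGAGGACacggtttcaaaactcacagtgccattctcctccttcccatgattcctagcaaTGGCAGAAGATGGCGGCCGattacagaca
Copy 12 (chrX:47958342-47958451): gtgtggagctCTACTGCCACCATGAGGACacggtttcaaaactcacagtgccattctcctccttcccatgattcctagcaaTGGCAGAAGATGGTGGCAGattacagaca
Copy 14 (chrX:47965036-47965145): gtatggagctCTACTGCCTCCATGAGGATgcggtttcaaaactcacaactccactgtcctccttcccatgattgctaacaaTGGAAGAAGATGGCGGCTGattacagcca
Copy 3 (chrX:47922462-47922571): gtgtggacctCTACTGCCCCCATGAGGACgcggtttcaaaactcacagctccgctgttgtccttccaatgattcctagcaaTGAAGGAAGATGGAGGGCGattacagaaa
Copy 9 (chrX:47950467-47950576): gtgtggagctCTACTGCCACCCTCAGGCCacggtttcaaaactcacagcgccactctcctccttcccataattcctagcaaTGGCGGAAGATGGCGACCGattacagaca

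The left edges of the elements lie 71 bp apart in 14 of the 16 copies. The elements of a copy lie on opposite strands and read away from each other, with a short spacer between their 5′ ends. Copies 15, 16 and 11 carry the same letters in both elements. The right element of copy 15 occurred in 4 of the 16 copies and its left element in 7, copy 15 included. Against copy 15, and counting from 1 at the 5′ end of each element in its own reading direction, the right element of copy 12 carried C14T and C18A and that of copy 14 carried C4A and C18T. The left element of copy 3 carried T11G. In copies 1 and 5 the elements stood at other distances, 73 and 72 bp, and in copy 5 the right element differed from that of copy 15 at 4 of its 19 positions.

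Motif scores were given by a 19 bp model learned from the 5000 strongest mm9 peaks outside X. The most frequent base at each of its positions gives the sequence below, printed in capitals throughout, to show how far the Firre elements lie from it.
CTCF motif model: GGCCAGCAGAGGGCGCCAG
A score of 12.35 bits, reached by 1% of windows of 101 bp that lay 5000 bp beyond peaks, was called a motif. The right element reached it in 8 of 16 copies and the left element in 2. At 4.70 bits, the score that 5% of such windows reach, the counts were 12 and 15. The right element scored highest, 15 bits, in copies 7, 11, 15 and 16, and lowest, -12.97 bits, in copy 5. The left element ranged from 4.47 bits in copy 13 to 14.8 bits in copy 9. None of the 15 motifs in the gene reached 21.05 bits, the score of 0.1% of windows, and that score was reached by 30.1% of all pooled mm9 peaks.

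On mm10, 9 conservative peaks lay in the gene, and they were alike in strength and weak for this chromosome. Their pooled signal, the value per peak from the authors' peak caller on a scale that is not stated, ran from 22.2 to 33.6 with a median of 29.3. The median over the 1009 peaks of X was 49.6, with quartiles at 33.7 and 72.5, and over the autosomes and X it was 77.2. All 9 stood below the X median, at ranks 760 to 959 on X. Each was 316 bp wide, so width carried no information about them.

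From the start of the gene inward, the first peak lay 12019 bp inside (summit at 50623302) and had the highest signal of the 9, 33.6. The peak at 15159 bp had a signal of 29.0, that at 22916 bp 29.3 and that at 29583 bp 24.4. The peak at 34885 bp had a signal of 29.7. After it came the longest gap, with the weakest peak of the gene at 51421 bp and a signal of 22.2. The remaining 3, at 58217, 62906 and 68721 bp, had signals of 31.3, 29.6 and 27.0. The first 12019 bp of the gene held none, and the last 3480 bp held none.

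**Figure D1:**
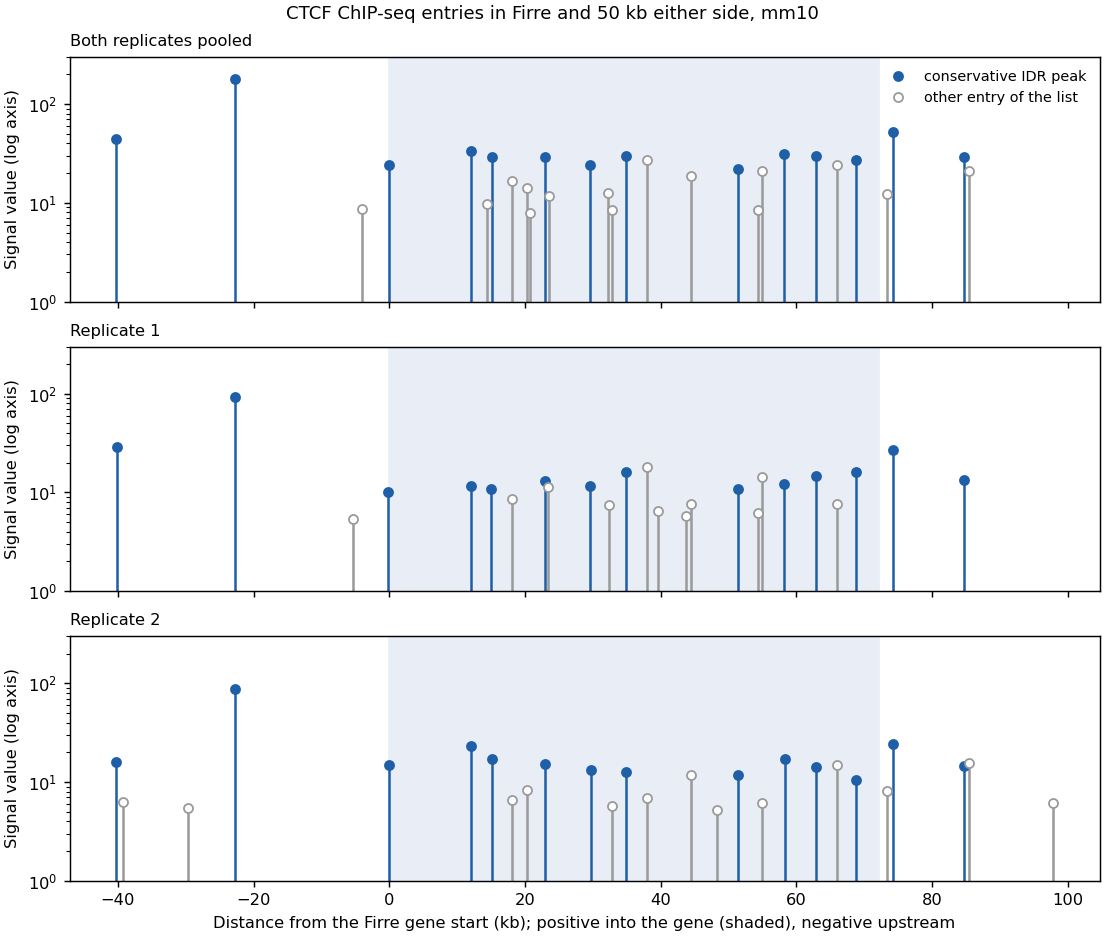
Signal (log axis, the authors' scale) of each list entry against its distance from the Firre gene start in kb, in the pooled list and in each replicate; shading marks the gene, filled points are conservative peaks and open points other entries. The 9 conservative peaks of the gene sit between 22.2 and 33.6 in the pooled list, and the peak 22690 bp upstream stands far above them at 182.

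Successive summits in the gene were 3140, 7757, 6667, 5302, 16536, 6796, 4689 and 5815 bp apart, read from the gene start inward, with a median of 6241 bp. The peaks thus followed each other at a few kb, except for the one gap of 16536 bp. Over X the median spacing of conservative peaks was 51105.5 bp, and over the autosomes and X it was 21034.5 bp. The density in the gene was 12.5 peaks per 100 kb, against 5 in the flanks, 2.49 times as many. Between its first and last peak, X held 0.613 per 100 kb, so the flanks too were denser than the chromosome as a whole. The ratio depends on the flank: with 20 kb on each side it was 1.66, and with 100 kb it was 4.16.

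The 5 flank peaks differed far more among themselves than the 9 in the gene. The strongest, 22690 bp upstream of the gene start (summit at 50658011), had a pooled signal of 182, 6.20 times the median of the gene peaks, and ranked 7 on X. It was also the narrowest of the 14, with 213 bp. Further upstream, at 40211 bp, a peak of 44.4 followed. Beyond the other end of the gene, 2043 and 12553 bp past it, lay peaks of 51.7 and 29.5, both inside Gm35612, a noncoding gene that abuts Firre on that side. The nearest conservative peaks outside the window lay 8868 bp beyond its edge on the gene-end side and 239802 bp beyond it on the gene-start side, while the outermost members lay 37447 and 9789 bp inside.

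The fifth flank peak covered the promoter of Firre. Its summit, at 50635435, was 114 bp upstream of the gene start, and its signal, 24.2, was lower than that of 8 of the 9 gene peaks. The RefSeq promoter sequence (GRCm38.p6, which is mm10) is printed 5′ to 3′ on the strand of Firre to show what the peak covers. The capitals mark the 21 bases centred on the summit.
Firre promoter (chrX:50635272-50635571): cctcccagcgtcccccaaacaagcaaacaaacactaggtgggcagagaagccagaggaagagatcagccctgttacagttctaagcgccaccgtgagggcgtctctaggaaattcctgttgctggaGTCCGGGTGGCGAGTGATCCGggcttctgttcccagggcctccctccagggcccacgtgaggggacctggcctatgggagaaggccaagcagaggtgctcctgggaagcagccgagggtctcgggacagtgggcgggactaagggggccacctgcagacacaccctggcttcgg
The best match to the motif in these 300 bases, on either strand, scored 6.49 bits, under the 12.35 bits called a motif. Of 32619 RefSeq promoters on the autosomes and X, 4.10% held a motif at 12.35 bits and 16.5% reached 6.49 bits. This says only that the motif model found no strong match in these letters.

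Both replicates contained every one of the 14 peaks, and the gene peaks were weak in each. Of the conservative peaks on the autosomes and X, 95.5% had a summit within 100 bp in the full lists of both replicates, so 14 of 14 is near that share. When each replicate was limited to its 43393 strongest entries, 8 of the 14 were found in both, 4 of 9 in the gene and 4 of 5 in the flanks, against 86.1% of all conservative peaks. In replicate 1 alone 5 of the 9 gene peaks were among those entries (90.3% of all conservative peaks), and in replicate 2 alone 8 of 9 (90.5%). The highest reproducibility score, 1000, was carried by 3 of the 9 gene peaks and 4 of the 5 flank peaks, against 85.6% of the set.

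To compare replicates, each signal was scaled to the median of that replicate over conservative peaks found in both, 41.6 in replicate 1 and 38.7 in replicate 2, and is called the relative signal. In replicate 1 the gene peaks had relative signals of 0.258 to 0.389 with a median of 0.293, and in replicate 2 of 0.272 to 0.594 with a median of 0.368. The first gene peak, 12019 bp inside, had the widest spread, with signals of 11.5 in replicate 1 and 23.0 in replicate 2. Its relative signal was 0.435 ± 0.225 (SD, n = 2). The replicates differed there 2.15 times, past the 2-fold difference that 3.2% of conservative peaks and 4.59% of those on X showed.

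The peak at 15159 bp had signals of 10.8 in replicate 1 and 17.1 in replicate 2, a relative signal of 0.350 ± 0.130 (SD, n = 2). That at 58217 bp had 12.2 and 17.2, or 0.368 ± 0.107. The rest of the gene peaks agreed more closely. The peak at 62906 bp was the closest, with 14.7 and 14.3, or 0.360 ± 0.0115. The peak at 22916 bp had 13.1 and 15.4, and that at 29583 bp had 11.5 and 13.3. The peak at 51421 bp had 10.9 and 11.8. The peaks at 34885 bp (16.2 and 12.8) and 68721 bp (16.04 and 10.5) were relatively stronger in replicate 1, and the other gene peaks in replicate 2. The share of all conservative peaks that were relatively stronger in replicate 2 was not computed.

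In all, 3 of the 9 gene peaks and 2 of the 5 flank peaks differed by over 1.5 times between replicates, against 17.4% of conservative peaks and 23.8% of those on X. The strongest upstream peak had signals of 91.8 in replicate 1 and 87.8 in replicate 2, a relative signal of 2.24 ± 0.0448 (SD, n = 2), with ranges that did not overlap those of any other member. The peak 40211 bp upstream had 28.8 and 16.01, or 0.553 ± 0.197, so it stood above every gene peak in replicate 1 and within their range in replicate 2. The promoter peak had 10.1 and 14.7, or 0.311 ± 0.0974, just under the lowest gene peak in replicate 1 and within their range in replicate 2. The pair past the gene end had 27.1 and 24.0 (nearer) and 13.4 and 14.5 (further). Summits of the replicates lay within 50 bp of the conservative summit except at 15159 bp (99 and 63 bp away) and 29583 bp (74 bp away in replicate 2). The share of all conservative peaks within 50 bp was not computed.

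**Figure D2:**
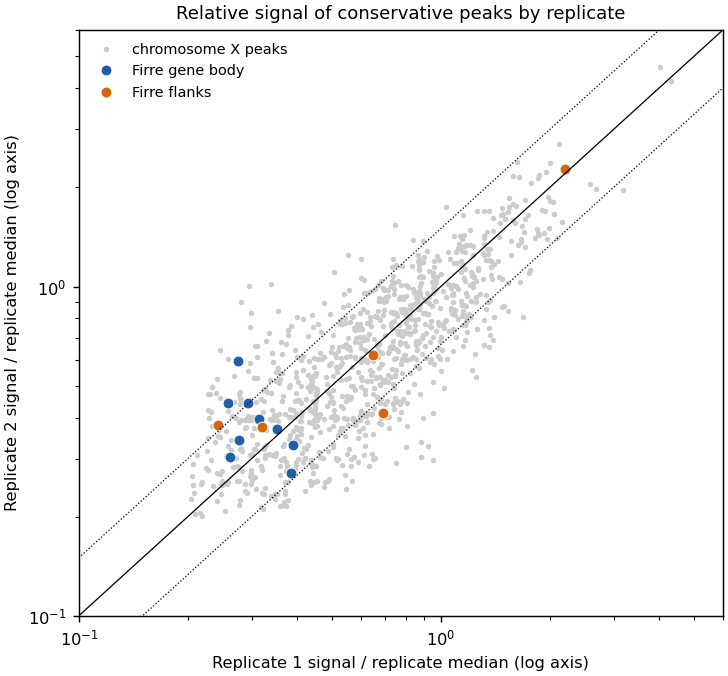
Relative signal in replicate 1 and replicate 2 (signal divided by the replicate's median, log axes) for the conservative peaks of X, of the Firre gene body and of its flanks; the solid line marks equality and the dotted lines a 1.5-fold difference. The 9 gene peaks lie at 0.258 to 0.389 in replicate 1 and 0.272 to 0.594 in replicate 2, and the strongest upstream peak lies near 2.24.

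The authors' optimal set, the more inclusive of their 2 lists, also held 9 peaks in the gene and 5 in the flanks, but not the same 9. It had no summit within 100 bp of the peaks at 22916 and 51421 bp, so 12 of the 14 members were in it, against 93.2% of conservative peaks. In their place it held a peak 54911 bp inside, with a signal of 20.9, and one 66004 bp inside, with a signal of 24.4. The median spacing in the gene was 3997.5 bp with this set.

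Below the reproducible sets, the list of the pooled replicates held 21 entries in the gene, 29.1 per 100 kb against 8 in the flanks and 2.00 over X. Replicate 1 held 19 entries in the gene and replicate 2 held 17. With a deposited q of at most 0.05, a limit chosen after the values were seen, 14 pooled entries remained in the gene, 5 of them outside the conservative set. In 4 of these 5 the relative signals of the replicates differed by over 1.5 times, against 56.5% of all pooled entries at this q that lay outside the conservative set and were found in both replicates. Neither replicate was always the stronger. The entry at 37982 bp had signals of 18.0 in replicate 1 and 6.94 in replicate 2, and the former was the highest of any gene entry in replicate 1. At 54911 bp the signals were 14.2 and 6.16. The order was the reverse at 66004 bp, with 7.64 and 14.8, and at 44461 bp, with 7.64 and 11.9. The weakest, at 18120 bp, had 8.57 and 6.64.

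With these entries included, the summits in the part toward the gene end followed each other at distances close to those of the repeat. From the gene end toward its start, the 13 distances between the 14 mm10 summits were 2717, 3098, 4689, 3306, 3490, 6960, 6479, 3097, 5302, 6667, 4796, 2961 and 3140 bp, with a median of 3490 bp. On mm9 the 15 distances between starts of successive copies, in the same direction, were 2513, 2755, 3066, 4680, 3316, 3530, 6984, 6431, 2613, 2626, 2634, 2653, 4039, 2661 and 2634 bp, with a median of 2755 bp. The first 7 distances between mm10 summits and the second to eighth between mm9 copies ran in parallel, with differences of 9 to 48 bp. The later distances did not match one by one.

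Distances from the annotated gene start, each measured in its own build with no coordinate converted, show the same in another form. Of the 16 copies, 9 had an mm10 entry at q 0.05 whose distance from the gene start differed by 5 to 76 bp from that of the copy, namely copies 2 to 9 and 16. Copies 10, 12 and 14 had one that stood 442, 483 and 459 bp nearer to the gene start. Copies 1, 11, 13 and 15 had none within 600 bp. With the conservative peaks alone, 4 of the 16 copies had a summit within 100 bp by this measure. As a check of the scale, the strongest upstream peak lay 22690 bp upstream of the gene start on mm10 and 22697 bp on mm9. The entries at 12019 and 15159 bp, which include the strongest gene peak of mm10, lay nearer to the gene start than the last copy, at 18079 bp.

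**Figure D3:**
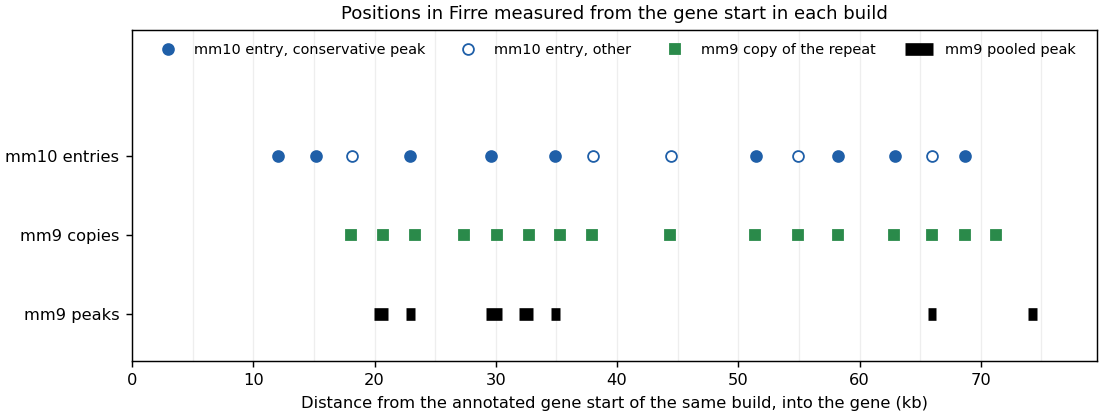
Distance into the gene from the annotated start of the same build (kb) for the 14 pooled mm10 entries at q 0.05 (filled where conservative), the 16 mm9 copies of the repeat and the 7 mm9 pooled peaks of the gene. From 37982 to 68721 bp inside each copy has an mm10 entry at nearly the same distance, and nearer to the gene start some copies have none.

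The mm9 lists were called separately. Their value per peak is a fold enrichment on the authors' scale, and peaks were assigned by their midpoint. The pooled mm9 list held 7 peaks in the annotated gene, with fold enrichments of 5.77 to 8.30 and a median of 7.03, and 3 in the flanks, with 5.2, 21.8 and 7.03. The median over 830 peaks of X was 8.72, so the gene peaks were below it in this call too, and the upstream peak of 21.8 ranked 2 on X. Replicate 1 held 6 gene peaks and replicate 2 held 8. All 7 pooled midpoints were intronic, and 1 peak overlapped an annotated exon.

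Of the 7 gene peaks, 6 overlapped a copy of the repeat. Those at copies 3, 11, 12 and 15 held both elements of the copy. Those at copies 10 and 14 covered 144 of 318 bp and 129 of 317 bp of the copy and held neither element. The best motif match of each lay outside the copy, 39 bp from the peak midpoint toward the gene start. These matches scored 10.07 and 7.63 bits, under the 12.35 bits called a motif. In the peaks at copies 11, 12 and 15 the right element lay at -198, -189 and -191 bp from the midpoint. Negative values are toward the gene end. In the peak at copy 3 the best motif, its left element, lay at -55 bp. The peak at copy 15, 20522 bp inside, was the strongest, with fold enrichments of 8.30 in the pooled list, 7.66 in replicate 1 and 9.43 in replicate 2. The peak at copy 10 had 8.02, 8.18 and 8.85, that at copy 11 had 7.03, 7.92 and 6.86, and that at copy 12 had 6.75, 8.18 and 9.14. Calls from a single replicate stood at copy 14, found in replicate 1 (7.66) but not in replicate 2, and at copy 3, found in replicate 2 (6.28) but not in replicate 1. Replicate 2 also had calls that the pooled list and replicate 1 lacked, at copy 5 (6.28) and 12079 bp inside (7.71). The latter stood near the distance of the strongest mm10 gene peak, 12019 bp. The seventh pooled peak, 74293 bp inside, overlapped no copy. It lies in the mm9 gene, while the mm10 peak at 74244 bp from the start lies past the end of the shorter RefSeq gene and was counted in the flank. Set beside the mm10 entries by distance from the gene start, 4 of the 7 peaks (at 74293, 65962, 34922 and 22967 bp) had one within 51 bp of their midpoint, and the peak at 29877 bp had one 294 bp away. The peaks at copies 11 and 15 had their nearest entry at q 0.05 2383 and 2394 bp away.

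Copies 11, 12, 15 and 16 resembled one another most. Each had another copy at 96.2% identity or more, while for the other 12 copies the best match was 84.0% to 92.0%. The first 3 of them lay in mm9 pooled peaks, and copy 16 in none. On mm10 the pooled list had only weak entries near the distances of copies 11 and 15. These were 12.7 and 8.49 at 32238 and 32820 bp, and 14.04 and 7.86 at 20275 and 20804 bp, none with a q of at most 0.05. Copies 12 and 16 had an entry at q 0.05 at distances that differed by 483 and 41 bp. Copies 1 and 13, which had none within 600 bp, had best matches of only 86.9% and 89.8%. How reads from near-identical copies were placed is not given in the sources used here. Its part in the difference between the mm9 and mm10 lists was not tested.

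Motif scores were also set beside the calls. At 12.35 bits, 4 of the 7 gene peaks and 3 of 3 flank peaks of mm9 held a motif, against 79.5% of all pooled peaks and 9.75% of windows of peak width beside them. In 3 of those 4 gene peaks the best motif pointed opposite to the transcription of Firre. At the looser 4.70 bits all 7 held one, 6 of them opposite. In the gene as a whole 15 motifs were found, 11 opposite to Firre and 4 in its direction, and in the flanks 10 and 3. All 3 flank peaks had a motif opposite to Firre. Over X, the best motif at 12.35 bits lay on the plus strand, opposite to Firre, in 336 pooled peaks. It lay on the minus strand in 356. Of the 15 motifs in the gene, 10 lay in copies of the repeat and share their source, and 5 lay outside them. From the gene end toward its start, those 5 scored 16.34, 12.97, 20.44, 17.43 and 18.51 bits, against at most 15 bits in the copies. The highest motif scores of the gene thus lay outside the copies. None of the 5 lay in a pooled mm9 peak, and that of 20.44 bits overlapped a peak of replicate 2 only.

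The right element scored a median of 13.9 bits in the 4 copies whose elements lay in a pooled mm9 peak and 8.99 bits in the 12 others. For the left element the medians were 11.3 and 10.4 bits. The groups overlapped widely. The right element of copy 16 had 15 bits and no mm9 peak. That of copy 3 had -5.78 bits and lay in a peak, whose best motif was the left element of the copy, at 13.11 bits. The strongest upstream peak did not stand out by its motif, which scored 12.43 bits. It is printed for comparison, 5′ to 3′ on the plus strand of mm9, with the motif in capitals.
Motif of the peak upstream of Firre (chrX:48011177-48011235): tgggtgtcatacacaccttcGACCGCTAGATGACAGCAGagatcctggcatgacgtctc

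**Figure D4:**
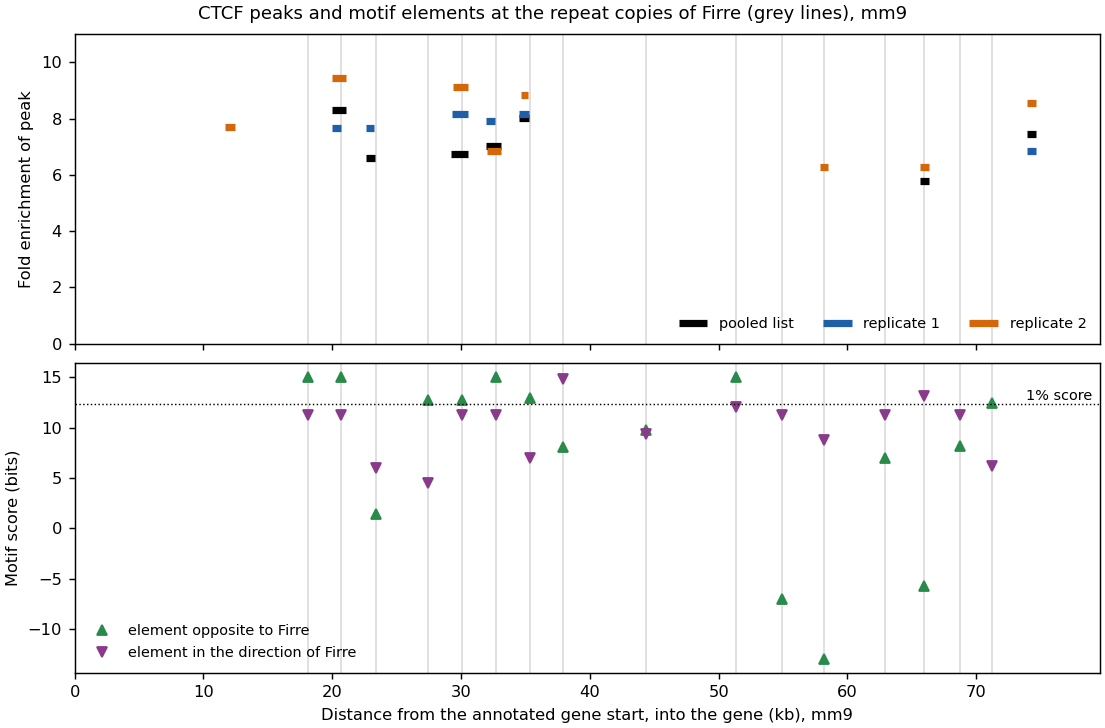
Upper panel, fold enrichment of each mm9 peak of the gene in the pooled list and the 2 replicates, with bars as wide as the peak. Lower panel, motif score in bits of both elements of the 16 copies, against distance from the gene start in kb, with the 12.35-bit score dotted. Right elements (opposite to Firre) range from -12.97 to 15 bits and left elements from 4.47 to 14.8 bits.

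A second repeated feature accompanied the copies. The 155 bp exon at chrX:47968538-47968692 on mm9, which reaches the edge of the strongest mm9 gene peak, had 12 copies in the gene, 2 of them annotated as exons, and none elsewhere on X. Of these, 11 started 754 to 975 bp from the right element of a repeat copy on the side of the gene start. Exon and element thus recurred at similar distances in most copies, and 5 of the 12 exon copies overlapped the edge of a pooled mm9 peak, by 12 to 96 bp.

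Among the 6443 RefSeq genes of 36101 to 144404 bp on the autosomes and X, 46 held 9 or more conservative peaks, which is 0.714%, Firre included. Rank 28 was shared by 19 genes, Firre among them. On X it ranked 1 of 250 such genes, and the next, Gm14569, held 6, while the median gene of either group held 1. Without regard to genes, the fullest window of the length of Firre elsewhere on X held 8 peaks, and 3.29% of all windows of this length that start at a conservative peak held 9 or more. For naming, a gene that overlaps one ranked higher by this count was left out. Of the rest, the 5 genes with the most peaks were B3glct (15), Chst8 (14), Col26a1 (14), Pcdhga6 (14) and 2900026A02Rik (12). B3glct encodes a glucosyltransferase, Chst8 is a sulfotransferase gene, Col26a1 a collagen gene and Pcdhga6 a clustered protocadherin. Firre differed from these in median strength: their median body signals were 75.7, 61.7, 101.6, 172.7 and 113.4, against 29.3 in Firre. All 5 are autosomal, however, and the median signal was 49.6 over X against 77.2 over the autosomes and X. The spread within these genes was also wider, from 34.9 to 193.7 in B3glct against 22.2 to 33.6 in Firre. The lowest body peaks of Chst8 and Col26a1, 8.49 and 8.81, were weaker than any in Firre. Those of Pcdhga6 and 2900026A02Rik, 50.04 and 38.8, were stronger than all of them. Counted as peaks per kb over all genes of at least 10 kb, Firre ranked 719.

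**Figure D5:**
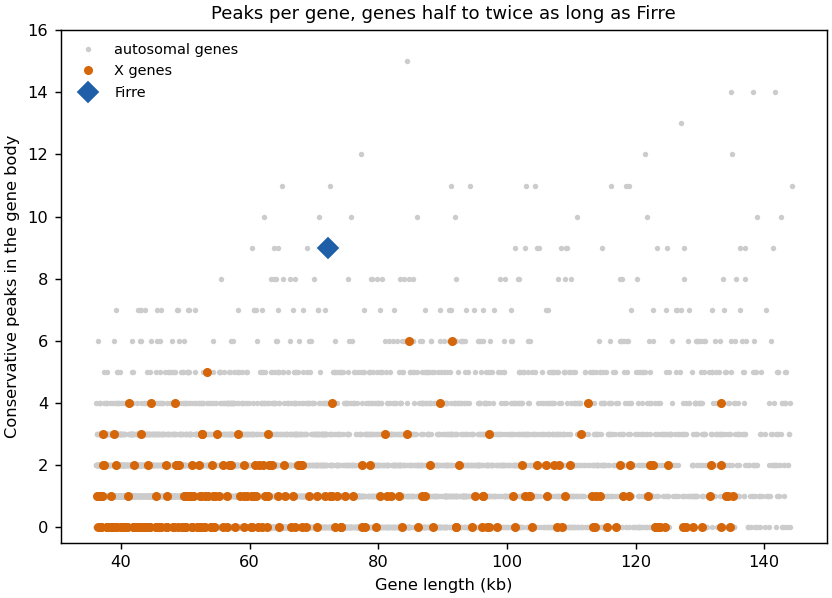
Conservative peaks in the gene body against gene length in kb for autosomal genes, X genes and Firre, among genes of 36101 to 144404 bp. Firre has 9 peaks, the X gene next to it has 6, and 27 autosomal genes have more than Firre.

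Other X loci known for noncoding RNAs held fewer peaks, with stronger ones among them. Tsix, the antisense partner of Xist, held 5 in its body, with signals of 27.9 to 71.2. Xist, the RNA that coats the inactive X, held 1 of 59.4, which lies within Tsix as well because the genes overlap. Ftx held 1 of 45.7, and Jpx held none in its body and 1 of 27.9 within 10 kb, which lies in Tsix as well. 4933407K13Rik, the Dxz4 locus, another tandem-repeat anchor of loops on the inactive X, held 2, with signals of 15.9 and 34.5, a range that spans that of Firre.

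The protein-coding neighbours of Firre had 1 peak among them. Stk26, a kinase gene 205853 bp upstream, held none, and Frmd7 beyond it held 1 of 33.2, the number of the median gene of this length, while 35.1% of such genes held none. The odorant receptor genes Olfr1324 and Olfr1323, 136626 and 552885 bp past the gene end, had none within 10 kb, which held for 33.2% of protein-coding genes. Of the genes described as lying near Firre in nuclei, Slc25a12, a mitochondrial carrier gene, held 1 peak of 100.9. Ppp1r10, which encodes a phosphatase regulator, held 1 in its body and 3 within 10 kb, the strongest 109.6. Within 10 kb of Atf4, a stress-response transcription factor gene, lay 2 peaks, the stronger of 254.7. Within 10 kb of Eef1a1, a translation factor gene, there were 3, the strongest 35.4, and near Ypel4 there was 1 of 73.1. All 5, which are autosomal, thus had a peak within 10 kb stronger than the strongest in the body of Firre, as had 62.2% of all protein-coding genes. Within 10 kb of Firre itself the strongest peak had 51.7, which Eef1a1 did not exceed and the other genes did. These lists hold no contacts between loci, so nearness was not measured.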

How the data were processed

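CTCF ChIP-seq of 2 biological replicates was analysed from deposited peak lists. Per the labels' file names, the authors' mm10 lists hold peaks together with background entries and served as IDR input (IDR measures reproducibility between replicates), with 1 list per replicate and 1 for the pool. Each deposited mm10 list gives a signal per peak and a −log10 q. The conservative and optimal sets also give an integer score, which ran from 537 to 1000 in the conservative set. The deposited mm9 lists give a fold enrichment, a ratio on the authors' scale, and a −log10 p. The software for alignment, peak calling and IDR, with its thresholds, is not given in the sources used here.

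Summits decided membership on mm10 and midpoints on mm9. Summits within 100 bp were matched. Genes and promoters on mm10 came from RefSeq (GRCm38.p6), and genes on mm9 from GENCODE vM1, with the mm9 genome. The orientation of motifs was planned for mm10 where a genome was given, and used mm9. Motifs were learned by expectation maximisation, a step tested on simulated data, and repeat copies were found with blastn 2.17.0 (alignments of at least 200 bp). Other work used Python 3.11.15, numpy and pandas. The optimal set, single replicates, the pooled list, flanks, matching distances and motif scores were alternatives.

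Members, gene lists and rules were chosen with earlier results of these data known. Named are all 14 peaks, 5 X loci, 5 genes described near Firre, and 2 protein-coding neighbours on each side. Also named are the 5 genes of similar length with the most peaks, leaving out a gene that overlaps a higher-ranked one.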

Additional observations from a re-analysis of the deposited data

How the results depend on the processing

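The number of peaks in the gene was 7 to 10 with 1 replicate alone, 9 with the optimal set and 11 among the strongest pooled entries. With pooled entries at q 0.05, a choice made after seeing the data, it was 14, with a median spacing of 3490 bp. The median spacing was 3997.5 bp with the optimal set, 4995.5 bp among the strongest pooled entries and 5261 to 6744 bp with 1 replicate alone. The ratio of gene to flank density was 4.155 with 100 kb flanks, 1.662 with 20 kb flanks (3 flank peaks) and 2.308 to 2.424 with 1 replicate alone. Limited to the strongest entries, 8 peaks were found in both replicates. The median relative signal of the gene peaks, 0.356, was 0.572 when divided by the medians over X, and 0.293 to 0.368 with 1 replicate alone. By peaks per kb Firre ranked 719 among genes of at least 10 kb. Gene peaks with a motif opposite to Firre numbered 0 at the 0.1% score and 6 at the 5% score, against 3. The cause of these differences was not tested, except that a wider flank or looser limit includes other peaks by construction.

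No paired analysis was possible because the libraries form 1 group. The depth is unknown, so whether a missing entry reflects depth could not be told. How reads of near-identical copies were placed is not stated, and no mm10 genome sequence was used here.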
